A study of Mus musculus with 6 samples.

Results

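Interleukins and colony-stimulating factors are secreted proteins by which cells of a tissue signal inflammation and steer the growth and survival of leukocytes. The 10 ligand genes described here were taken by name, with earlier results of these data known. Il1a, Il1b, Il1rn, Il18 and Il33 are of the interleukin-1 family, and Il6, Il11 and Lif of the family that signals through gp130. Csf1 and Csf3 are colony-stimulating factors. All 10 were found among the 24421 gene symbols of each library. Of these, 9 had enough counts to be tested, and Il6 did not.

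The cells were primary mouse liver sinusoidal endothelial cells, the fenestrated lining of the hepatic sinusoids, purified from livers of wild genotype with beads against CD146. The labels used here give neither strain nor age nor the number of animals. Both groups were plated on collagen I overnight and kept without serum for 6 h. The 3 pressure samples then received hydrostatic pressure cycling from 101 to 135 kPa (absolute, 0.01 Hz) over 8 h, and 3 samples served as controls, whose time and handling over those hours are not labelled. Handling and pressure therefore cannot be told apart. The question addressed here is how the ligand transcripts of these cultures differ after cyclic pressure. Markers of macrophages and Kupffer cells were abundant in every library, as were those of endothelium (values below). Levels are therefore those of the whole culture, not of endothelial cells alone. No source says whether samples of a group were separate cultures, so p-values reflect only sample-to-sample spread, possibly technical.

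As background, interleukin-1α and interleukin-1β are agonists of the same receptor, and the Il1rn product occupies that receptor without signalling. Interleukin-1β and interleukin-18 are made as inactive precursors that caspase-1 cleaves within the inflammasome, whereas interleukin-1α and interleukin-33 are held in the cell and can act when it is damaged. Interleukin-6, interleukin-11 and leukaemia inhibitory factor (Lif) bind separate receptor chains and share gp130, which activates JAK kinases and STAT3. Csf1 keeps macrophages, Kupffer cells of the liver included, alive, and Csf3 drives the production and release of neutrophils.

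In short, transcripts of Il11, Il1a, Csf1 and Il33 were higher under pressure (4.04, 2.75, 2.59 and 1.45-fold), and Il18 was lower (1.88-fold). The Il33 call held in only 8 of 13 alternative analyses and was lost under some scalings. Csf3 was also called higher (5.98-fold), but its pressure libraries carried it into the test, so its call is no support beyond its values. The Il18 call has a like limit, since 3 control but only 2 pressure libraries reached the level the low-count filter needs. Il1rn, Il1b and Lif did not pass the test. Il6 counts were few and higher in every pressure library. Tests are edgeR quasi-likelihood tests, with p-values adjusted (Benjamini-Hochberg) across the 12892 genes that were tested. In that comparison 68.8% of genes passed an adjusted p of 0.05, with 33.7% higher and 35.1% lower. The share of the 9 tested members called in either direction lay near that of all genes. By direction they were less even, with 5 higher (Csf3 included) and 1 lower (Il18), a difference that was not tested. The groups did not overlap for 71.9% of all genes tested, and for 7 of the 10 members (6 above and 1 below the controls). Those members include Il6, which was not among the genes tested, and Csf3 and Il18, limited as above.

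Promoter sequences of 4 genes with more transcript under pressure are shown first, and that of Il1rn, whose level differed little, for comparison. Each window runs from 250 bases before to 50 bases after a RefSeq transcription start (build GRCm38.p6), and RefSeq windows matched 9 of the 10 genes; Csf3 had no entry. Capitals mark matches to 5 motifs searched on both strands: the NF-kB consensus, AP-1 (TGANTCA), CRE (TGACGTCA), C/EBP (TTGCNNAA) and the TATA box (TATAAA). The windows are chr3:107760420-107760719 (Csf1, minus strand), chr2:129309923-129310222 (Il1a, minus strand), chr7:4778092-4778391 (Il11, 1 of 2 starts, minus strand), chr5:30012864-30013163 (Il6, plus strand) and chr2:24336610-24336909 (Il1rn, the first of 3 starts, plus strand).
Csf1: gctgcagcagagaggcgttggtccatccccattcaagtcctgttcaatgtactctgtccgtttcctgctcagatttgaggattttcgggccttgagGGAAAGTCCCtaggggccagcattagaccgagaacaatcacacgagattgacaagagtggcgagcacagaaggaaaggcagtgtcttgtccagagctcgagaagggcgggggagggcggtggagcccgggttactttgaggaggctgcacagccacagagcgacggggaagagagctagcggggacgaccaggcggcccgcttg
Il1a: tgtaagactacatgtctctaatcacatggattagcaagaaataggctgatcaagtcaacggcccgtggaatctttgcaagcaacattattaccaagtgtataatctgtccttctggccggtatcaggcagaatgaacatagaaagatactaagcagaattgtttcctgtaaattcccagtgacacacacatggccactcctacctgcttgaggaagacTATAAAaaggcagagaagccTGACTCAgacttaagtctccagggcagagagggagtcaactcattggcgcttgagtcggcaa
Il11: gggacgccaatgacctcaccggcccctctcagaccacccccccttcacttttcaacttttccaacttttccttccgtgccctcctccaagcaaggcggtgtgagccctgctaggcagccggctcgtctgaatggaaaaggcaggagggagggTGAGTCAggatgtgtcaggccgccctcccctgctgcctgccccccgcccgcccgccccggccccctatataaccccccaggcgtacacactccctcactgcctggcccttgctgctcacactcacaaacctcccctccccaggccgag
Il6: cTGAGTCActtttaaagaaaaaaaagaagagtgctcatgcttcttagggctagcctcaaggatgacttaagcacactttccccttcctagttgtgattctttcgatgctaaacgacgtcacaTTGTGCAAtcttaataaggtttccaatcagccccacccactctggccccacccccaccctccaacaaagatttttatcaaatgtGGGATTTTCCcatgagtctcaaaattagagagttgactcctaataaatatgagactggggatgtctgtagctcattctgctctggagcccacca
Il1rn: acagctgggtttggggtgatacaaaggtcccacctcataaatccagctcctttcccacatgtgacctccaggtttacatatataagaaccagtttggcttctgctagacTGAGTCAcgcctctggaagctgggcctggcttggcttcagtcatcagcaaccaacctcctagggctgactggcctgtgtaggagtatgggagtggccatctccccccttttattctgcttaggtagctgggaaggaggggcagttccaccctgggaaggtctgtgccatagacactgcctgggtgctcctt

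The Il6 window held an NF-kB match 44 bases before the start, a C/EBP match 128 bases before it and an AP-1 match 249 bases before it. The Csf1 window held an NF-kB match 154 bases before the start, and the Il11 window an AP-1 match 98 bases before it. The window of the other Il11 start, not shown, held no match to any of these motifs. Neither Il33 window, also not shown, held an NF-kB or AP-1 match. In Il1a, a TATA box lay 32 bases and an AP-1 match 12 bases before the start. Il1b, which did not pass the test, also had a TATA box, 31 bases before its start. The Il1rn window had an AP-1 match 141 bases before the start. Over the 13 windows of the members, 3 held the NF-kB consensus (Csf1, Il6 and Lif), 5 AP-1, 2 C/EBP, 6 TATAAA and 0 the CRE. Among all 32851 windows of this length the shares were 8.46%, 7.81%, 10.8%, 13.6% and 1.79%. The TATAAA matches of Il1a, Il1b and an Il33 window lay 29 to 32 bases before the start. Those of Il18 and the other Il33 window lay 175 and 203 bases before it, and that of an Il1rn window lay after it. Lif, which did not pass the test of expression, had both NF-kB and AP-1 matches. These are letter matches within the windows only, and whether any bears on expression was not tested.

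A second sequence feature lies in the 3′ untranslated regions, where repeats of the pentamer ATTTA are known as binding sites of proteins that speed or slow mRNA decay. In the longest annotated 3′ untranslated region (GENCODE M21), Csf3 had 8.97 pentamers per kilobase, Il1b 8.71, Il11 8.38 and Il6 6.00. The median of 11434 tested protein-coding genes was 1.37, and these 4 stood at the 99.2, 99.2, 99.0 and 96.4 percentiles. Il1rn had none in 1864 bases, and Csf1 and Il1a had 1.89 and 2.72 per kilobase. A longer form, TTATTTA followed by A or T at each of the next positions, occurred 7 times in Il11 and 3 times in Lif, in none of the other members, and in 18.3% of all these genes. The 30 bases with the most pentamers, in capitals, are shown for the 4 densest regions, because they belong to Il11 and Csf3, which rose, to Il6, which was too low to test, and to Il1b, which did not pass.
Il11: ctttaaaaccagatcttATTTATTTATTTA
Csf3: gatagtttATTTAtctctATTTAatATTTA
Il6: tttaattatttttaATTTAttgataATTTA
Il1b: ttacctATTTATTTAtgtATTTAttgattg

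Levels below are CPM, the counts divided by TMM-scaled library size on a common scale, with mean ± SD (n = 3 per group), and log2 fold changes are pressure over control ± standard error. Library totals were 12922959 to 18655749 deposited counts, so 1 count was worth 0.05 to 0.0819 CPM. Pressure replicate 3 was the least like its group (correlation of log CPM 0.9888 and 0.9913, against 0.9957 between the other pair). Leaving it out changed no call among the 9 tested members. Scaling by library totals alone moved the median change of all genes by -0.21 on the log2 scale and upper-quartile scaling by -0.11, so changes near 0 have no fixed sign.

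Of the colony-stimulating factors, Csf1, the macrophage survival factor, was the most abundant member. The control libraries held 271.8, 260.2 and 281.5 CPM and the pressure libraries 604.2, 675.3 and 831.6 CPM. The groups did not overlap, and pressure replicate 3 was the highest. Csf1 rose by 1.38 ± 0.11 on the log2 scale (edgeR adjusted p = 1.74e-06). Csf3, the neutrophil growth factor G-CSF, had 9, 6 and 8 counts in controls and 41, 43 and 32 under pressure. These correspond to 0.45, 0.32 and 0.529 CPM in controls and to 2.56, 2.61 and 2.62 CPM under pressure. All pressure libraries were above all controls and close to each other. The change was 2.58 ± 0.26 (edgeR adjusted p = 1.06e-05). Csf3 entered the test through its pressure libraries, since only 1 control library reached the level the low-count filter needs (0.569 CPM before TMM scaling), so its call is no support beyond its values.

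The interleukin-1 receptor ligands moved apart. Il1a, the agonist kept in the cell until release, measured 57.45, 56.38 and 56.56 CPM in the control libraries against 153.0, 165.9 and 149.8 CPM in the pressure libraries. Controls differed little from each other, and the lowest pressure library was far above them. Il1a rose by 1.46 ± 0.076 (edgeR adjusted p = 1.70e-07). Il1rn, the receptor antagonist, read 155.5, 139.5 and 146.5 CPM in controls and 138.6, 154.2 and 148.0 CPM under pressure. The ranges overlapped almost fully, with a log2 change of -0.0025 ± 0.078 (edgeR adjusted p = 0.979). With library totals only, Il1rn passed as lower (-0.22, adjusted p = 0.0333). Il1b, the agonist best known from macrophages, had only 8 to 22 counts in any library. Its mean was 0.85 ± 0.283 CPM in the control group against 0.69 ± 0.0501 CPM after pressure, and the groups overlapped (-0.30 ± 0.34, edgeR adjusted p = 0.45).

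The ratio of antagonist to agonist transcripts within a library needs no scaling. In controls there were 2.71, 2.48 and 2.59 Il1rn counts for each Il1a count, and under pressure 0.906, 0.929 and 0.988. Every control library held more Il1rn than Il1a and every pressure library slightly less. The mean log2 ratio went from 1.37 ± 0.0644 to -0.0888 ± 0.0646 (SD, n = 3), a difference of -1.46, or 2.75-fold lower. The exact permutation test over samples (two-sided) gave p = 0.1, the smallest that 3 against 3 allows. Il1a to Il1b also differed without overlap, 48.05 to 88.46 in controls and 204.7 to 248.2 under pressure (log2 difference 1.71, exact permutation p = 0.1). Il1rn to Il1b overlapped, 118.9 to 239.4 in controls and 185.3 to 230.6 under pressure (exact permutation p = 0.7), and the sign of its difference turned without control replicate 2. Counts per gene also scale with transcript length, so a ratio of 1 is not equal numbers of molecules.

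**Figure D1:**
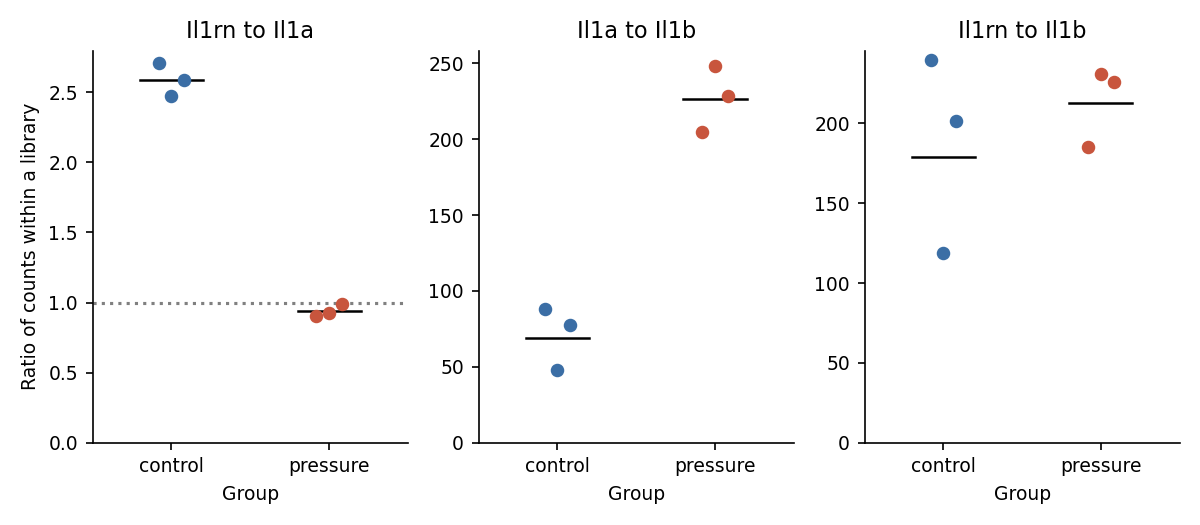
Ratios of deposited counts (linear axis) within each of 3 control and 3 pressure libraries for Il1rn to Il1a, Il1a to Il1b and Il1rn to Il1b; points are libraries and black lines geometric means. Il1rn to Il1a falls from 2.48 to 2.71 in controls to 0.906 to 0.988 under pressure (dotted line at 1), while Il1rn to Il1b overlaps between the groups.

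The remaining interleukin-1 family members were low. Il33, an alarmin stored in the nucleus of endothelial and stromal cells, had 3.40, 2.83 and 4.43 CPM in controls and 4.86, 5.11 and 5.32 CPM under pressure. The pressure libraries lay just above the highest control, and the change was 0.53 ± 0.18 (edgeR adjusted p = 0.0234). It no longer passed with library totals only (adjusted p = 0.151), with upper-quartile factors (0.0637) and without control replicate 1 or 2 or pressure replicate 2 (0.0786, 0.105 and 0.0586). Il18, an inducer of interferon-γ in lymphocytes, had 26, 32 and 26 counts in controls and 10, 16 and 11 under pressure. In CPM these were 1.30, 1.71 and 1.72 for the controls against 0.623, 0.973 and 0.901 for the pressure libraries, all pressure libraries being lower. Il18 fell by 0.91 on the log2 scale (standard error 0.28, edgeR adjusted p = 0.0137), a call lost without control replicate 2 (adjusted p = 0.0512) or pressure replicate 1 (0.0618). The low-count filter needs 3 libraries, and for Il18 3 control but only 2 pressure libraries reached its level. Controls thus carried Il18 into the test, and its call is no support beyond its values.

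Among the gp130 ligands, Il11, which acts on stromal cells, haematopoietic progenitors and fibroblasts, had 1.25, 0.907 and 1.92 CPM in controls and 6.92, 5.11 and 3.93 CPM under pressure. The groups were apart, and among the pressure libraries replicate 1 was the highest and replicate 3 the lowest. Il11 rose by 2.01 ± 0.29 (edgeR adjusted p = 0.000111). Its deposited counts were fractional in all 6 libraries, against 3 for Il1a, 1 for Il1rn and none for the rest, so its level is less certain; what made them fractional is not recorded. Il6, the acute-phase inducer, had 1, 2 and 3 counts in controls and 15, 22 and 5 under pressure. All pressure libraries exceeded all controls, but replicate 3 by only 2 counts. Summed over each group and scaled to library size, 42 counts against 6 gave a ratio of 8.44 (95% exact interval 3.57 to 24.3, counting error only). Il6 failed the low-count filter. Without the filter the edgeR change was 2.94 ± 0.62 (adjusted p = 0.000461). Leaving out any 1 control library, or pressure replicate 3, brought Il6 past the filter, again through its pressure libraries, and it was then called higher (log2 change 2.58 to 3.46). Lif, named for its effect on leukaemia cells, had 2.05, 1.60 and 2.31 CPM in controls and 2.24, 1.52 and 2.95 CPM under pressure. The lowest library of all 6 was a pressure library, and the change of 0.15 ± 0.27 did not pass (edgeR adjusted p = 0.632). Its sign turned with library totals only (-0.063) and without pressure replicate 3 (-0.067).

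**Figure D2:**
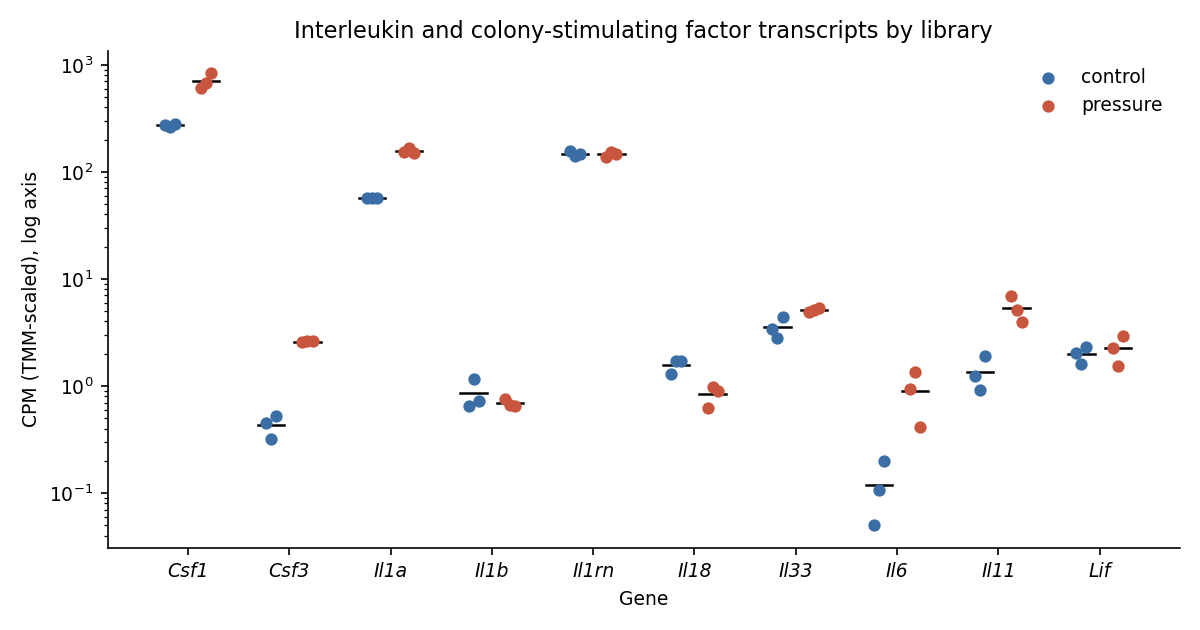
CPM after TMM scaling (log axis) of the 10 genes in 3 control (blue) and 3 pressure (red) libraries; black bars are group means. Csf1, Csf3, Il1a, Il33, Il6 and Il11 lie higher in every pressure library and Il18 lower, while Il1b, Il1rn and Lif overlap.

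**Figure D3:**
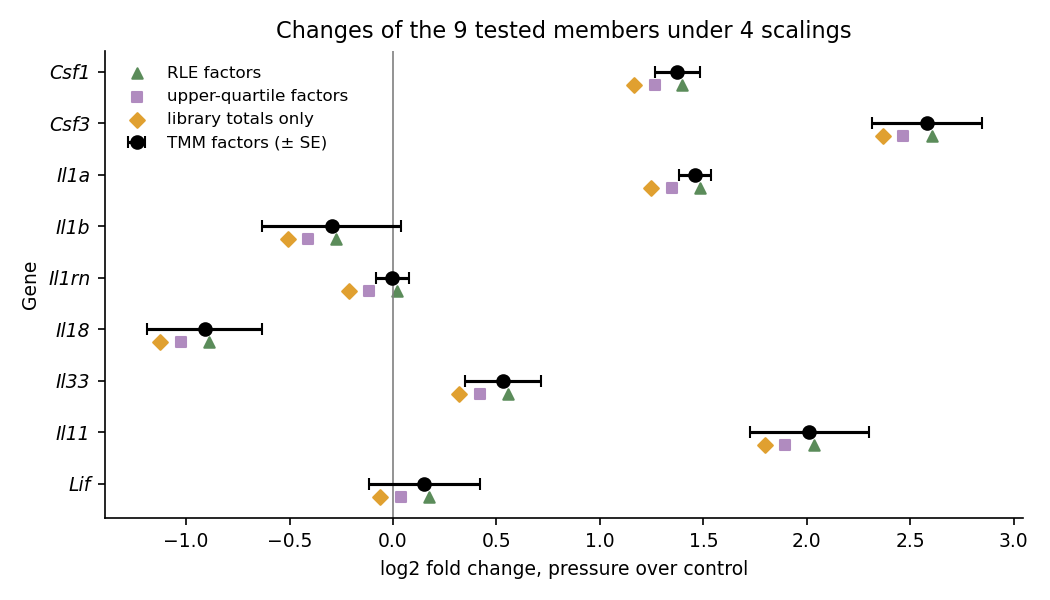
Log2 fold change, pressure over control, of the 9 tested genes with TMM factors (black, ± standard error) and with 3 other scalings. Csf1, Csf3, Il1a and Il11 stay above 1 under all 4 scalings, whereas Il1rn and Lif lie on either side of 0.

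In sum over the 10 genes, control libraries held 464.8 to 496.5 CPM and pressure libraries 914.7 to 1146 CPM. Csf1 made up most of this. Its share of the members' counts was 55.04% to 56.71% in controls and 66.06% to 72.55% under pressure. The Il1rn share went from 29.52% to 31.48% in controls to 12.91% to 15.23% under pressure, and that of Il1a from 11.39% to 12.13% to 13.07% to 16.73%. The other genes stayed under 1% each in all libraries.

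**Figure D4:**
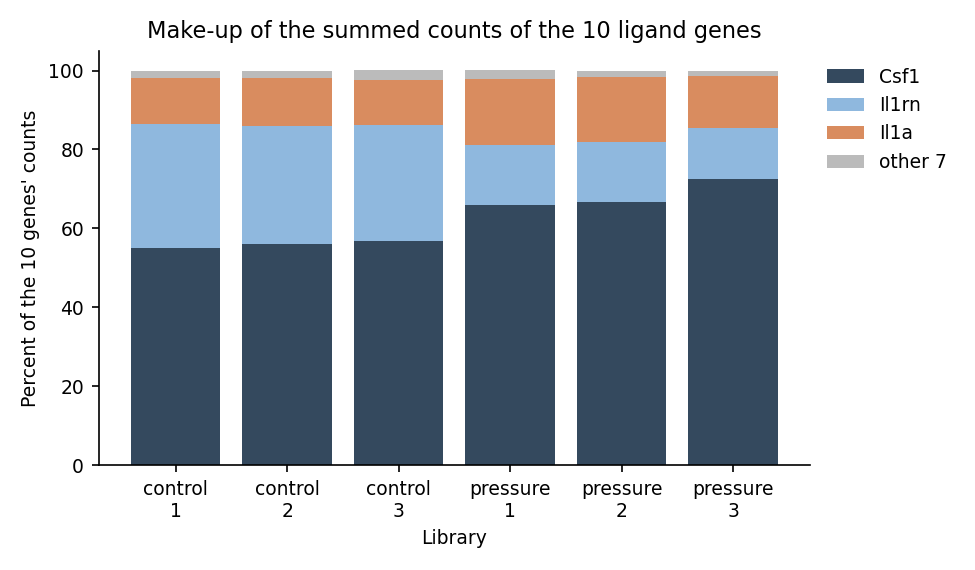
Stacked bars, from 0 to 100%, of each gene's share of the summed counts of the 10 ligand genes in the 6 libraries; the 7 least abundant genes are joined. Csf1 takes 55.04% to 56.71% in controls and 66.06% to 72.55% under pressure, as the share of Il1rn narrows.

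Levels can be set between genes only per length. Per kilobase of annotated exons (GENCODE M21), the control order was Csf1 (51.4 ± 2.02 CPM per kilobase), Il1a (28.8 ± 0.29), Il1rn (26.6 ± 1.45), Il18 (1.53 ± 0.232), Il33 (1.23 ± 0.281), Il11 (0.652 ± 0.247), Lif (0.457 ± 0.0827), Il1b (0.446 ± 0.148), Csf3 (0.306 ± 0.0745) and Il6 (0.0487 ± 0.0308). Neighbours whose ranges overlapped were Il18 and Il33, Il11 and Lif, Lif and Il1b, and Il1b and Csf3. Under pressure the order was Csf1 (133 ± 22.0), Il1a (79.2 ± 4.32), Il1rn (26.6 ± 1.42), Il11 (2.56 ± 0.723), Csf3 (1.84 ± 0.0254), Il33 (1.77 ± 0.0801), Il18 (0.807 ± 0.179), Lif (0.514 ± 0.164), Il6 (0.368 ± 0.192) and Il1b (0.362 ± 0.0262). Here Csf3 and Il33, Il18 and Lif, Lif and Il6, and Il6 and Il1b overlapped. Csf3 thus had rank 9 in controls and rank 5 under pressure. The place of Il1rn depends on the length used: its exons span 5.54 kb together, but its longest transcript is 2.55 kb. With the latter, chosen after the data were seen, Il1rn was 2.0 times Il1a in controls and 0.727 times under pressure, where exon lengths give 0.924 and 0.336.

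In GRCm38, Il1rn (ENSMUSG00000026981.15), Il1a (ENSMUSG00000027399.1) and Il1b (ENSMUSG00000027398.13) lie on chromosome 2, at 24336853 to 24351494, 129299610 to 129309972 and 129364570 to 129371139. Csf1 spans chromosome 3 from 107741048 to 107760469 and Il11 chromosome 7 from 4772373 to 4782859. Each span covers exons, introns and untranslated regions of a protein-coding gene. In that annotation a transcript on the other strand, Gm14023, overlaps an exon of Il1a. Its counts were 127.5, 98 and 92 in controls and 250.15, 296.1 and 160.5 under pressure (1.40 ± 0.15, edgeR adjusted p = 1.28e-05), in parallel with Il1a. As no strand setting of the counting is given, reads of this pair cannot be told apart. Il18 likewise overlaps Bco2 on the other strand, which had 20, 13 and 9 counts in controls and 0, 9 and 5 under pressure (-1.29 ± 0.61, edgeR adjusted p = 0.0836). These counts are few, like those of Il18, and lower under pressure as well, and the part of shared reads in the Il18 call was not tested. Il1b overlaps Il1bos, which had at most 1 count.

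Across the 6 libraries, genes with the pattern most like Csf3 were Opa3, Tank and Kdm4a (Pearson correlation of log2 CPM 0.9995, 0.9994 and 0.9987). Among those most like Il11 were Erich1 and Cdk5r1 (0.9962 and 0.9951), and those most like Il1a were Wdr75, Sipa1l2 and Zfand5 (0.9995, 0.9994 and 0.9994). The 6 points share a control and a pressure cluster, and 23.0% to 27.5% of the 9715 or 9716 candidate genes exceeded 0.9 for these members, so such values describe the group difference.

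Among 40 other interleukin, gp130-family and colony-stimulating factor ligands listed in the files, 9 were tested. Of these, 4 were higher and 2 lower, and the median log2 change was -0.25 against -0.015 for all genes. For this and each list below, the background is all genes tested, 33.7% higher and 35.1% lower. Another 13 had no count in any library. Il16, a chemoattractant for CD4+ cells, was the most abundant and fell from 45.8 to 12.6 CPM (-1.86 ± 0.13, edgeR adjusted p = 9.61e-07). Il17c, of the interleukin-17 family, had 1.5, 3 and 3 counts in controls and 25, 20 and 12 under pressure (3.03 ± 0.41). Il23a, a subunit of interleukin-23, had 13, 11 and 11 counts in controls and 47, 33 and 40 under pressure (2.04 ± 0.28). Il17c reached the test only through its pressure libraries. Of gp130-family ligands, Clcf1 changed by 0.57 ± 0.16 (edgeR adjusted p = 0.00843, but 0.0669 with library totals only), and Cntf by 0.82 ± 0.24 (adjusted p = 0.0108, but 0.0556 without control replicate 1). Il15 was lower (-0.73 ± 0.29, edgeR adjusted p = 0.0469), a call lost when any of 5 single libraries was left out. Ebi3 (-0.35 ± 0.20) and Il34 (-0.25 ± 0.35), the other ligand of the Csf1 receptor, did not pass, though Ebi3 did as lower with library totals only (adjusted p = 0.0275).

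Receptors and binding proteins of these ligands had 5 higher and 8 lower of 16 tested, against 33.7% and 35.1% of all genes (median log2 change -0.19). With library totals only, 4 were higher and 11 lower. The signalling interleukin-1 receptor gene Il1r1 went from 42.8 to 86.2 CPM (1.01 ± 0.11, edgeR adjusted p = 1.53e-05), and its partner chain Il1rap rose too (0.64 ± 0.16). Il1r2, the decoy receptor, had 0 to 2 counts in any library. Sigirr, an inhibitory member of that receptor family, fell from 4.13 to 1.95 CPM (-1.09 ± 0.20). The shared gp130 chain Il6st went from 592 to 319.7 CPM (-0.89 ± 0.10, edgeR adjusted p = 2.71e-05), while Il6ra rose from 12.9 to 22.4 CPM (0.80 ± 0.12). Il11ra1 fell (-0.54 ± 0.17, edgeR adjusted p = 0.015, and 0.0554 to 0.0708 without control replicate 2 or pressure replicate 1 or 2). It has near-identical copies, among them Il11ra2, and fractional counts, so its value is uncertain. Lifr did not pass (-0.13 ± 0.084). The Csf3 receptor gene Csf3r, a neutrophil marker, fell from 9.56 to 4.55 CPM (-1.08 ± 0.15). Csf1r, carried by macrophages, changed by 0.39 ± 0.087 (edgeR adjusted p = 0.00218, but 0.0739 with library totals only). Csf2rb and Csf2rb2, near copies that encode the common β chain, fell together (-1.09 ± 0.083 and -0.89 ± 0.068), and reads could be split between them. Il18bp, which binds and blocks interleukin-18, was abundant (130.9 and 120.8 CPM) and did not pass (-0.12 ± 0.074). With library totals only, Il18bp and Lifr passed as lower (adjusted p = 0.00234 and 0.00313), as they did with upper-quartile factors (0.021 and 0.0185). Sigirr, Il1rap, Il11ra1 and Csf1r were named for their link to the members, after their values were seen.

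Genes that process or release the interleukin-1 family had 6 higher and 9 lower of 20 tested, against 33.7% and 35.1% of all genes (median log2 change -0.14). With library totals only, 4 were higher and 11 lower. The inflammasome sensor Nlrp3 rose from 2.53 to 9.84 CPM (1.95 ± 0.14, edgeR adjusted p = 1.13e-06). The adaptor Pycard, which joins sensors to caspase-1, fell from 5.16 to 1.12 CPM (-2.18 ± 0.19, adjusted p = 3.97e-06). Casp1, the protease that matures interleukin-1β and interleukin-18, fell from 84.1 to 57.9 CPM (-0.54 ± 0.11), and Casp4, of the noncanonical inflammasome, rose (0.85 ± 0.14). Ninj1, needed for membrane rupture, fell (-0.77 ± 0.11). For interleukin-1α, Capn1, a calpain protease, fell (-0.71 ± 0.093), as did S100a13, linked to its export (-1.12 ± 0.13), and Capn2 did not pass (-0.099 ± 0.073). Adam17, a sheddase of membrane-bound ligands and receptors, did not pass either (-0.12 ± 0.076). Capn2 and Adam17 both passed as lower with library totals only (adjusted p = 0.0035 and 0.00366) and with upper-quartile factors (0.0248 and 0.0218). Casp1 was named after its value was seen.

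Downstream of the interleukin-1 receptor, 7 of 15 genes were higher and 4 lower, against 33.7% and 35.1% of all genes (median 0.064, and -0.15 with library totals only). The ubiquitin ligase Traf6 went from 59.8 to 171.6 CPM (1.52 ± 0.12, edgeR adjusted p = 1.62e-06), the adaptor Myd88 rose by 0.89 ± 0.086, Peli1 by 1.00 ± 0.11 and Tab2 by 0.88 ± 0.11. Tollip, which restrains the pathway, also rose (0.66 ± 0.072). Irak4, the first kinase, fell from 27.2 to 12.2 CPM (-1.16 ± 0.12), and Irak1 (-0.16 ± 0.098) and Irak2 (0.064 ± 0.12) did not pass, but Irak1 did as lower with library totals only (adjusted p = 0.0041) and upper-quartile factors (0.0166).

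Of gp130 pathway genes, 5 of 13 were higher and 5 lower, against 33.7% and 35.1% of all genes (median 0.14, and -0.076 with library totals only). Socs3, the feedback inhibitor of gp130, went from 16.5 to 33.5 CPM (1.02 ± 0.13, edgeR adjusted p = 4.33e-05), and Cebpb, a transcription factor first known for binding the IL6 promoter, from 48.9 to 149 CPM (1.60 ± 0.13). Jak2 rose (0.70 ± 0.083), whereas Tyk2 went from 46.04 to 13.1 CPM (-1.81 ± 0.092) and Bcl3 fell (-1.53 ± 0.17). The adaptors Grb2 (0.14 ± 0.066) and Ptpn11 (0.17 ± 0.085) passed only without pressure replicate 3 (adjusted p = 0.0399 and 0.00282).

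Regulators of cytokine mRNA stability had 8 of 14 higher and 1 lower, against 33.7% and 35.1% of all genes (median 0.30 on the log2 scale). With library totals only, 6 were higher and 1 lower (median 0.089). Arid5a, which stabilises Il6 mRNA, went from 8.69 to 83.04 CPM (3.26 ± 0.13, edgeR adjusted p = 5.39e-08). Transcripts for proteins that bind ATTTA repeats and speed decay rose too: Zfp36l2 from 223 to 452 CPM (1.02 ± 0.082) and Zfp36, known as tristetraprolin, from 30.6 to 57.1 CPM (0.90 ± 0.12). Hnrnpd, or AUF1, rose by 0.91 ± 0.074 and Cnot7, a deadenylase subunit, by 0.63 ± 0.10. Tia1, a translational silencer, fell (-1.05 ± 0.10). Cnot1 (0.29 ± 0.16) and Khsrp (0.13 ± 0.089) passed only without pressure replicate 3 (adjusted p = 2.89e-06 and 0.0292).

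**Figure D5:**
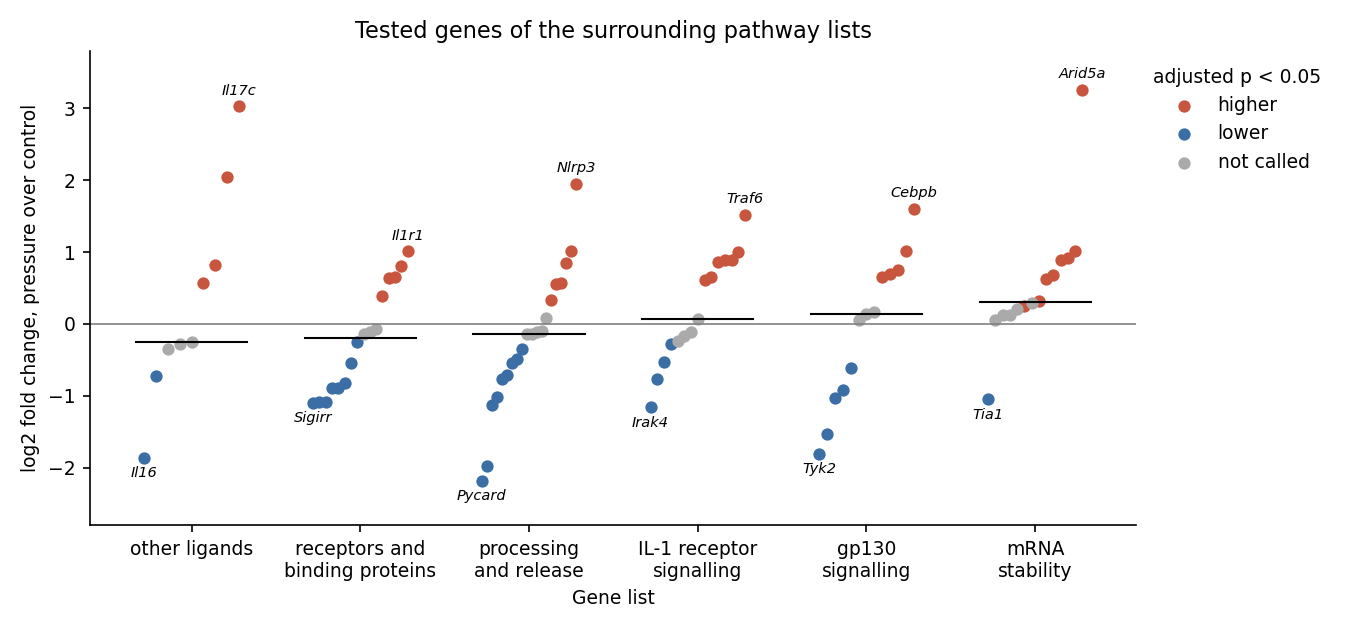
Log2 fold change, pressure over control, of each tested gene in the 6 surrounding lists, ordered within a list; red and blue mark adjusted p under 0.05 (higher, lower), grey the rest, and black bars are list medians. Rises and falls occur in every list, with 1 fall (Tia1) among the mRNA stability genes; the highest and lowest gene of each list is named.

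Markers of other liver cells were measured in the same libraries. In bulk RNA, fewer cells of a type and less RNA per cell cannot be told apart. Macrophage and Kupffer markers summed to 7072 to 7653 CPM in controls and 6606 to 7151 CPM under pressure, with 2 higher (Marco, Csf1r) and 2 lower (Cd5l, Vsig4) of 12. Neutrophil markers summed to 11.9 to 14.0 CPM and 8.33 to 10.1 CPM, with 1 higher and 1 lower of 3 tested, and S100a9, Retnlg and Camp had 0 counts in all 6 libraries. Csf3r, the receptor gene above, was the lower one; Mmp9 was higher (2.12 and 3.03 CPM, edgeR adjusted p = 0.0337) and Cxcr2 did not pass (0.489 and 0.671 CPM). Stellate and mural markers summed to 157.1 to 170.3 CPM in controls and 172.3 to 190.6 CPM under pressure (1 higher and 3 lower of 9 tested). Hepatocyte markers were at 7.40 to 10.4 and 14.2 to 17.5 CPM (2 higher of 3 tested). Cholangiocyte and mesothelial markers were at 2.25 to 2.51 and 3.43 to 5.40 CPM (2 higher of 2 tested). The sums for T, NK and B cells were 6.94 to 8.34 and 5.16 to 6.67 CPM (2 lower of 4 tested). Sinusoidal endothelial markers, which identify the labelled cells, summed to 5833 to 6070 and 3717 to 4214 CPM, 7 of 10 being lower. General endothelial markers summed to 5423 to 5768 and 5098 to 5706 CPM. Of these, 5 of 9 were lower and only Mcam was higher (13.9 and 27.0 CPM, edgeR adjusted p = 5.49e-05). The macrophage and Kupffer sum lay above the sinusoidal endothelial sum in both groups. Cd5l and Marco made up much of it (2560 and 1991 CPM in controls). These sums cover different genes of different lengths, and general endothelial markers were summed apart, so they do not rank the cell types. The part of each cell type in the members' values was not tested.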

How the data were processed

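Polyadenylated RNA of 3 control and 3 pressure samples was sequenced as 101-base single reads from a stranded kit, per the labels' protocols. TopHat2 2.2.1, Cufflinks 2.2.1 and the build mm10 are named in the submitters' processing notes; no source used here gives the counting tool, strand setting or annotation. Deposited values are expected counts per gene symbol, partly fractional, and were rounded here. Genes passed filterByExpr (minimum count 10, minimum total 15), leaving 12892 with 99.94% of counts. TMM-scaled counts were compared with edgeR 4.0.16 (R 4.3.3) quasi-likelihood F-tests without covariates, two-sided, Benjamini-Hochberg adjusted, threshold 0.05. Ratios within libraries used exact permutation over samples. The script was tested on simulated data. Alternatives were DESeq2 1.42.0, limma-voom (limma 3.58.1), other scalings and filters, the sample number as a block, and leaving out each sample.

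The 10 members and all lists were chosen with earlier results of these data known. Named genes were all members and, per list, up to 6 called genes with the smallest p and up to 2 abundant uncalled ones; likeness used tested genes of at least 5 CPM and log2(CPM + 0.5). A gene that the rule names in 1 list and 1 in the likeness ranking are not reported here.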

Additional observations from a re-analysis of the deposited data

How the results depend on the processing

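Csf1 and Il1a passed in all 14 alternatives (log2 changes 1.16 to 1.48 and 1.25 to 1.49), and Il11 in the 13 that tested it (1.78 to 2.30). Csf3 ranged from 2.37 to 2.72, but its selection by the filter makes its passing no sign of stability. Il33 missed with upper-quartile factors (0.42) and library totals only (0.32) and ranged from 0.389 to 0.702 with 1 library left out; Il18 ranged from -1.06 to -0.725, missing without control replicate 2 or pressure replicate 1. With library totals only, Il1rn passed as lower (-0.22) and 2 members were lower. A minimum mean of 5 CPM left 2 members higher and 0 lower, and of the other ligands 0 higher and 1 lower, because fewer genes were tested. With 1 library left out, 4 to 6 members were higher, Il6 among them where it reached the test (without any 1 control or pressure replicate 3), and 0 to 1 members and 1 to 2 other ligands were lower; RLE factors and DESeq2 gave 1 other ligand lower. The Il1rn to Il1b log2 difference ranged from -0.045 to 0.46 and reversed without control replicate 2. With library totals only, 34.7% of called genes were higher, and with upper-quartile factors 41.16%, against a near-even main split (4347 higher, 4524 lower). Same-numbered samples did not deviate together (correlations 0.17, -0.301 and -0.184), and pressure replicate 3 correlated best with control replicate 2 (0.371). The replicate block gave 4069 genes higher and 4315 lower and changed no call among the members; its sign-flip permutation for Il1rn to Il1a had an exact p = 0.25, the smallest 3 pairs allow. Depth limits Il6, Csf3, Il1b, Il18 and Lif, with counts of 1 to 43 per library, and Il11 in controls, with 16.57 to 29.33.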
